A study of Saccharomyces cerevisiae with 137 samples.

Results

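Wild-type budding yeast (Saccharomyces cerevisiae, strain BY4741) was sampled 15 min after its cultures had been moved from 30 °C to 13 °C. The arrays of that time point were chosen by their titles and number 4 of the 137 arrays of the series, 1 for each of flasks 1 to 4, which are separate cultures per the labels. Each array set the RNA of a flask at 15 min (t15), in one dye, against the RNA of the same flask before the shift (t0), in the other. The cells grew in YEPD, a rich medium that contains glucose, without the antibiotic G418 that the deletion strains of the series received. The t15 sample carried Cy5 in flasks 1 and 2 and Cy3 in flasks 3 and 4. Flask 1 was hybridised on a GCAT chip and flasks 2 to 4 on Ontario chips, and all 4 slides were coated with PEG after washing. The later cold samples used for comparison were 5 wild-type arrays at 30 min (t30) and 4 at 60 min (t60), of which 1 each came from a flask of strain BY4739 (flask 0). Other flasks at t15 came from 4 deletion strains of the BY4741 background, dCIN5, dGLN3, dHAP4 and dZAP1, each lacking 1 transcription regulator and grown with G418 (16 arrays; those of dHAP4 were uncoated).

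Cold stiffens membranes, stabilises RNA secondary structure and slows translation and the assembly of ribosomes, and a yeast culture moved to low temperature stops growing for a while before it resumes at a slower pace. Ribosome assembly needs a large set of nucleolar factors, among them the small subunit processome, which folds and cuts the precursor of the small subunit RNA, and the pre-60S factors that build the large subunit. Heat shock chaperones and the factors that sort misfolded proteins are controlled largely by Hsf1, and the hexose transporters by glucose through the repressors Rgt1, Mig1 and Mig2. In yeast the first minutes of cold are known to bring out transcripts of RNA metabolism, while the mannoprotein genes of the TIP and TIR family follow later.

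Values are the authors' log ratios of t15 over t0 on a scale where 1 unit is 1 scaled median absolute deviation of the array, and are called scores here. Scores are not folds, and the direction, t15 over t0, rests on the titles. A score is relative to the other features of its array, so a change of total RNA cannot be seen in it. In these bulk cultures, fewer cells holding a transcript and less of it per cell cannot be told apart. Scores of single flasks are given in the order of flasks 1, 2, 3 and 4, and means with the SD over flasks. A gene is said to have risen or fallen where limma gave an adjusted p below 0.05 for the t15 score against 0, in a fit whose spread rests on all 23 wild-type arrays. The arrays measured 6055 to 6111 of 6178 features, and 6172 features with a value in at least 2 flasks were tested. The small number of arrays limits the precision.

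After 15 min at 13 °C, 668 of 6172 features had changed (10.8%), of which 472 rose (7.65%) and 196 fell (3.18%). The changes upward were also the larger ones: 17 risen features had a mean above 4 and 2 fallen features a mean below −4. Of the risen features 425 had a score above 0 in every flask measured, and of the fallen ones 184 had a score below 0 in every flask. Leaving out flask 1, 2, 3 or 4 gave 610, 310, 274 or 422 calls, so that the number of genes past the threshold, though not the direction of those named below, depended on single flasks.

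NCE103 (YNL036W), the gene of carbonic anhydrase, which supplies bicarbonate to the cell, had the highest mean of all risen genes. Its scores were 6.04, 9.54, 8.55 and 10.71, a mean of 8.71 ± 1.99 (SD, n = 4 flasks, adjusted p = 7.2e-05). The scores of YGR035C, an uncharacterised gene, were 3.65, 8.82, 8.91 and 8.86 (adjusted p = 1e-06), nearly equal on the Ontario chips and lower on the GCAT chip of flask 1. YLR225C, also uncharacterised, scored 3.31, 6.22, 6.40 and 5.35, and YGR079W 3.21, 6.21, 4.07 and 1.93, so that both were above 0 in each flask. RTS3, a gene linked to protein phosphatase 2A, scored 1.67, 6.09, 3.05 and 5.17. ATG29, a gene of the autophagy machinery, and UBC11, which encodes a ubiquitin-conjugating enzyme, were lowest in flask 1, at 1.71 and 1.16, and reached 7.71 and 6.68 in flask 3. VID24, the substrate receptor of the ubiquitin ligase that marks enzymes of gluconeogenesis for destruction, rose to 5.32 ± 2.97, with scores of 3.09, 9.68, 4.57 and 3.94. PRM7, a gene regulated by mating pheromone, scored 6.55, 0.64, 5.59 and 5.46, the lowest value in flask 2. Among the 20 highest and the 20 lowest genes by mean, 33 of 40 kept their call without each single flask. ATG29 lost it without flask 3 (adjusted p = 0.059), PRM7 without flasks 1, 3 or 4 (adjusted p up to 0.16), and the others are given with their groups.

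**Figure D1:**
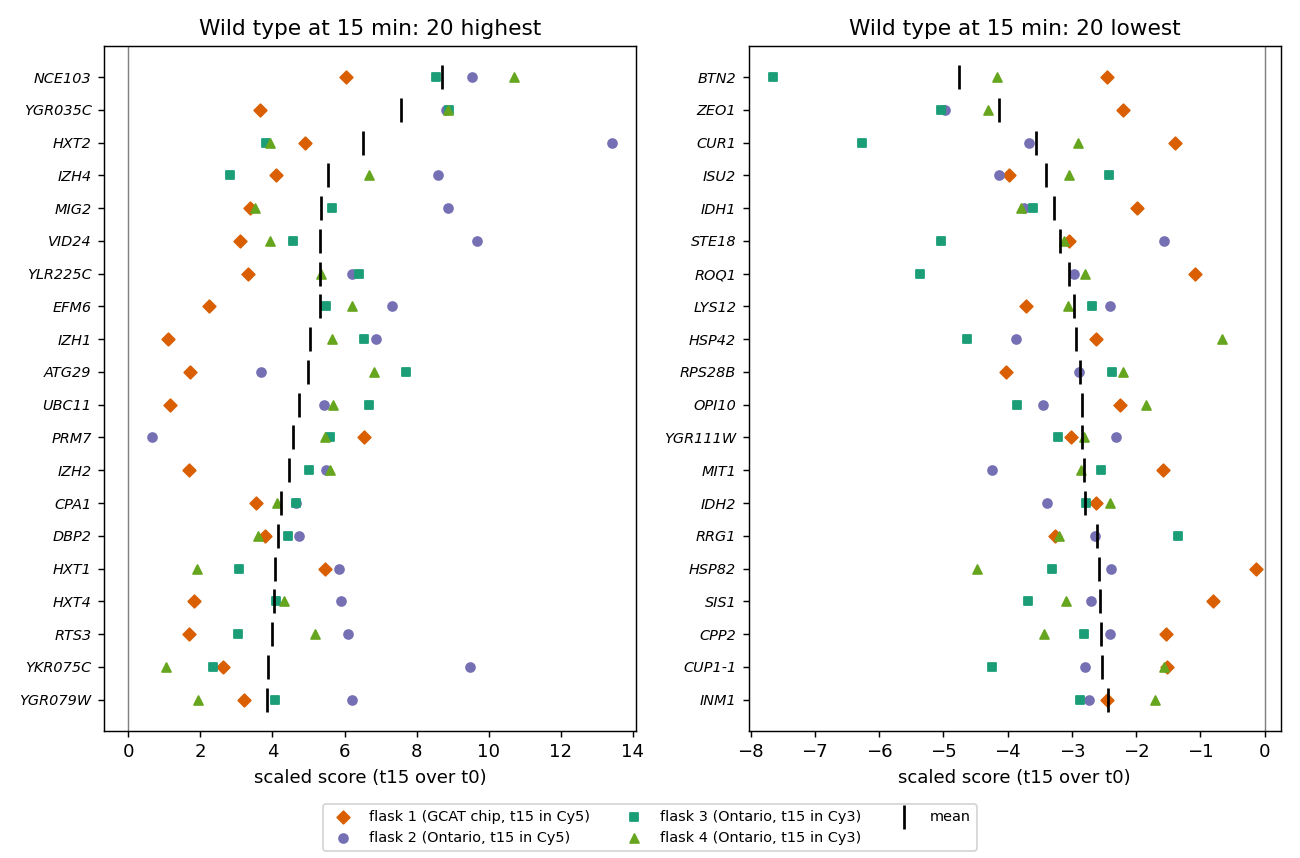
Scaled scores of the 20 highest (left) and 20 lowest (right) genes by mean in wild type at 15 min, among genes past the threshold and with the same sign in every flask measured. Each symbol is 1 flask and the black bar the mean; NCE103 runs from 6.04 to 10.71, HXT2 has flask 2 far to the right at 13.42, and BTN2 has no value in flask 2.

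Genes of ribosome assembly were the largest listed group that rose. In a list of small subunit processome and other small subunit assembly genes (below, the processome list), 34 of 74 tested rose and none fell. Of 78 members of large subunit assembly 40 rose and none fell, beside 7.65% of all features that rose and 3.18% that fell. List medians at t15 over all flasks are medians of the members' fitted means. They were 1.29 and 1.54 here, against −0.01 over all features tested. Medians of the scores were of like size in each flask: 1.11, 1.54, 1.36 and 1.13 for the processome list, and 1.36, 1.93, 1.70 and 1.31 for large subunit assembly. The number of risen processome members was 27, 17, 15 and 27 without flask 1, 2, 3 or 4, and that of large subunit assembly members 38, 24, 26 and 33; no member fell in any of these.

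Within the processome list, NSR1 (YGR159C), the yeast counterpart of nucleolin and known to be induced by cold, had scores of 3.39, 3.52, 3.71 and 2.50 (mean 3.28 ± 0.53, adjusted p = 3.8e-05). FCF2, a processome factor, varied least, at 2.87, 3.00, 3.11 and 2.99. RRP36 and RCL1, both needed for early cleavage of the precursor RNA, rose to 3.13 ± 0.83 and 2.78 ± 1.03. NOB1, the nuclease that makes the final cut of the small subunit RNA, rose to 2.70 ± 0.74. On the large subunit side, SSF1, MAK16 and RRS1, factors of early nucleolar particles, rose to 3.39 ± 1.15, 2.91 ± 0.25 and 2.94 ± 0.49. NMD3 and ALB1, which act around the export of the large subunit from the nucleus, scored 4.28, 1.85, 2.10 and 3.60 and 4.58, 2.64, 2.66 and 2.00, each highest in flask 1. All of these kept their call without any single flask.

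DBP2 (YNL112W), a DEAD-box RNA helicase that unwinds RNA duplexes, had scores of 3.79, 4.74, 4.44 and 3.59 (mean 4.14 ± 0.54, adjusted p = 7.5e-05), one of the narrowest ranges among the 20 highest genes. Of the 17 tested helicase genes outside ribosome assembly, 2 rose and none fell, beside 7.65% and 3.18% of all features. The 2 risen genes were DBP2 and the mitochondrial helicase MSS116, and the list had a median of −0.09. MSS116 had a mean of 1.48 ± 0.75 and lost its call without flasks 1, 2 or 3 (adjusted p up to 0.13). Among 39 subunits and factors of RNA polymerases I and III 3 rose and none fell, a share near that of all features, with a median of 0.23. RRN11, part of the core factor that recruits RNA polymerase I to ribosomal DNA, was the highest of these at 1.62, 4.33, 2.97 and 1.67 (adjusted p = 0.001). RPA12 and RPB5 lost their calls when single flasks were left out (adjusted p up to 0.15 and 0.12).

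Few genes of the cytosolic ribosomal proteins themselves passed the test, beside 7.65% of all features that rose and 3.18% that fell. In the large subunit 1 of 79 tested genes rose and none fell, and in the small subunit none of 56 rose and 1 fell, with medians of −0.26 and −0.20. RPS28B, a small subunit protein with a close paralog, scored −4.02, −2.89, −2.37 and −2.21 (adjusted p = 0.0018). RPL26B, also 1 of a pair of paralogs, scored 1.58, 2.82, 1.71 and 3.31 and lost its call without flasks 1, 2 or 4 (adjusted p up to 0.16). The flask medians were 0.07, 0.06, −0.86 and −0.56 in the large subunit list and 0.13, 0.23, −0.74 and −0.36 in the small subunit list. They were thus near 0 in flasks 1 and 2, with t15 in Cy5, and below 0 in flasks 3 and 4, with t15 in Cy3. With dye orientation as a term in the fit, 3 genes of each list fell, 1 rose in the large subunit and none in the small subunit. At t30 and t60 the medians of plain means over flasks were −0.80 and −0.82 for the large subunit list. For the small subunit list they were −0.77 and −0.83. In flasks 1 to 4 these ratios share the t0 samples with t15.

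**Figure D2:**
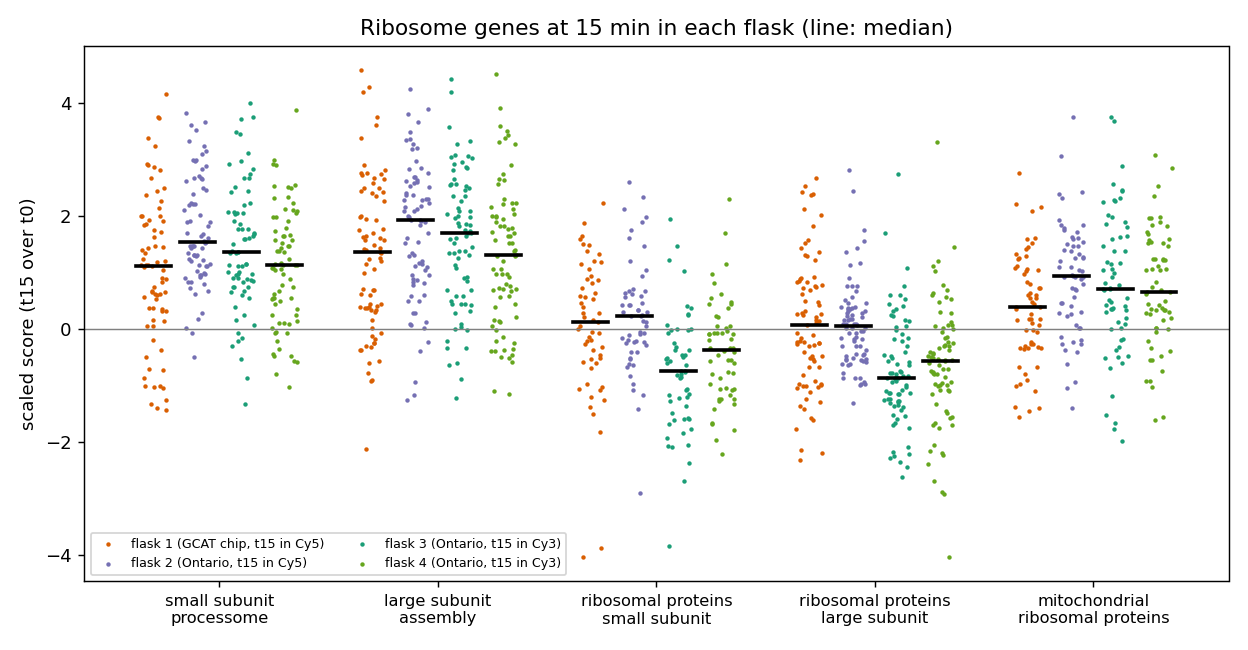
Scores of single genes of 5 ribosome gene lists at 15 min, each dot 1 gene in 1 flask, the black line the median of the list in that flask and the colour the flask. The assembly lists lie above 0 in all 4 flasks (medians 1.11 to 1.93), whereas the ribosomal protein lists have medians of 0.06 to 0.23 in flasks 1 and 2 and of −0.86 to −0.36 in flasks 3 and 4.

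Mitochondrial ribosomal protein genes rose in part: 16 of 63 tested members rose and none fell, beside 7.65% and 3.18% of all features. The list had a median of 0.64 and flask medians of 0.40, 0.95, 0.71 and 0.66. MRPL16 (YBL038W), a protein of the large mitochondrial subunit, had scores of 2.77, 3.06, 3.68 and 3.08 (adjusted p = 6.9e-06), and MRPL40, of the same subunit, scored 1.26, 3.75, 2.32 and 2.36. The number of risen members was 14, 6, 2 and 7 without flask 1, 2, 3 or 4. The 2 genes named kept theirs.

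Of 22 tested genes listed for methylation of elongation factors, the ribosome and transfer RNA, 4 rose and 1 fell. These counts stood beside 7.65% and 3.18% of all features, and the list had a median of 0.48. EFM6 (YNL024C), a methyltransferase of translation elongation factor 1A, scored 2.24, 7.32, 5.48 and 6.21 (mean 5.31 ± 2.18, adjusted p = 5.2e-06), lowest in flask 1. TRM11, the catalytic subunit of a transfer RNA methyltransferase, and EFM2, which methylates elongation factor 2, rose to 2.74 ± 0.96 and 1.80 ± 0.27. The fallen gene, EFM3, another methyltransferase of elongation factor 2, had scores of −0.98, −0.57, −1.36 and −2.03 and lost its call without flasks 2, 3 or 4 (adjusted p up to 0.15). Among 40 initiation and elongation factors none rose and 2 fell (none, none, 1 and none without flask 1, 2, 3 or 4), and among 20 transfer RNA synthetases none rose and none fell, with medians of −0.05 and −0.10.

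Glucose transport and glucose repression formed the next group. Of 14 tested hexose transporters 8 rose and none fell, beside 7.65% and 3.18% of all features. Their median of 1.95 was the highest of the gene lists examined. HXT2 (YMR011W), a high-affinity transporter induced when glucose is scarce, scored 4.91, 13.42, 3.81 and 3.92 (mean 6.52 ± 4.63, adjusted p = 0.0003). Flask 2 held the highest score of any feature on that array, and the fitted value of HXT2 was 4.35 without it and 6.54 with it (adjusted p = 0.0019 without it). HXT1, the low-affinity transporter induced by abundant glucose, scored 5.47, 5.84, 3.07 and 1.91, and HXT4 scored 1.83, 5.91, 4.09 and 4.31. GAL2, the galactose permease, was near 0 in flask 1 at 0.10 and reached 3.62, 3.20 and 2.14 in the others. These 4 genes kept their calls without any single flask. HXT7 rose to 3.82 ± 2.80, with its highest score, 7.49, in flask 2. HXT3, HXT5 and HXT6, named after their values were seen, had means of 3.49 ± 2.24, 1.61 ± 1.61 and 2.70 ± 1.61, also with the highest score in flask 2. Without flask 2 none of these last 4 was past the threshold (HXT7, HXT3, HXT5 and HXT6 at adjusted p = 0.085, 0.18, 0.33 and 0.3), and 4 of the 14 transporters then remained risen. HXT7 also lost its call without flask 3, HXT6 without flasks 1 or 3, HXT5 without flasks 3 or 4, and HXT3 on the Ontario chips alone. HXT6 and HXT7 are nearly identical in sequence, so that their scores may not be separate measurements. The list's flask medians were 0.80, 3.72, 1.74 and 1.54.

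The repressors that glucose controls rose as well. MIG2 (YGL209W), a zinc-finger repressor of genes that glucose switches off, scored 3.37, 8.87, 5.65 and 3.52 (mean 5.35 ± 2.56, adjusted p = 2.5e-05). MIG1, which acts on many of the same promoters, scored 3.23, 3.13, 1.43 and 0.98, higher in flasks 1 and 2 than in flasks 3 and 4 (adjusted p = 0.0034); it lost its call on the Ontario chips alone (adjusted p = 0.063). MIG3, of the same family, scored 2.76, 2.10, 2.55 and 1.83, and STD1, which modulates glucose sensing through Rgt1, scored 1.64, 3.16, 1.94 and 1.23. MIG3 lost its call without flasks 1, 2 or 3 (adjusted p up to 0.11) and STD1 without flask 2 (adjusted p = 0.059). In the glucose sensing and repression list 5 of 23 tested members rose and none fell, beside 7.65% and 3.18% of all features. The list had a median of 0.44, and without flask 2 the number of risen members was 2. PFK27, which makes the activator of glycolysis fructose 2,6-bisphosphate, had scores of −0.86, 6.70, 3.45 and 2.42, and a fitted value of 2.93 with all flasks and of 1.72 without flask 2 (adjusted p = 0.16). PFK27 also lost its call without flask 3. YKR075C, an uncharacterised gene, scored 2.63, 9.48, 2.35 and 1.05; its fitted value was 3.85 with all flasks and 2.00 without flask 2 (adjusted p = 0.1).

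Genes of zinc-linked membrane proteins rose. IZH4 (YOL101C), IZH1 (YDR492W) and IZH2 (YOL002C) belong to a family of membrane receptors linked to zinc homeostasis. The scores of IZH4 were 4.10, 8.60, 2.83 and 6.67 (adjusted p = 0.00077), those of IZH1 1.10, 6.87, 6.54 and 5.64 (adjusted p = 0.0005) and those of IZH2 1.69, 5.48, 5.00 and 5.61 (adjusted p = 7.4e-06). IZH1 and IZH2 were thus lowest in flask 1, on the GCAT chip. ZRT1, the high-affinity zinc transporter, scored 2.33, 6.50, 3.31 and 1.20, and ZPS1, a cell wall protein induced by zinc shortage, scored 1.88, 2.22, 3.05 and 2.04. Of 21 tested IZH genes and targets of the zinc regulator Zap1, 7 rose and none fell, beside 7.65% and 3.18% of all features. The median of this list was 0.85. ZAP1 itself scored 0.66, 0.61, 0.32 and −0.37 and did not pass the test (adjusted p = 0.66).

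In arginine synthesis 1 gene rose at 15 min. CPA1 (YOR303W), the small subunit of the carbamoyl phosphate synthetase that feeds arginine synthesis, had scores of 3.54, 4.64, 4.64 and 4.13 (mean 4.24 ± 0.53, adjusted p = 1.5e-06). Of 16 tested arginine genes 1 rose and none fell, beside 7.65% and 3.18% of all features, with a median of −0.18. In the other amino acid pathways few genes moved. LYS12, an enzyme of lysine synthesis, fell to scores of −3.71, −2.41, −2.68 and −3.06 (adjusted p = 3.7e-05), 1 of 2 fallen and 1 risen genes among 34 of lysine, leucine and aromatic amino acid synthesis. In sulfur assimilation 2 of 28 rose, a share near that of all features. CYS4, 1 of these 2 and the first enzyme of the path from homocysteine to cysteine, had a mean of 1.50 ± 0.28.

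Chaperone genes were the largest listed group that fell. Of 38 tested heat shock proteins and chaperones 9 fell and 1 rose, beside 3.18% and 7.65% of all features, with a median of −0.89. Among 12 factors that sort misfolded proteins, 5 of which are also in the chaperone list, 5 fell and none rose, with a median of −1.27 and flask medians of −1.34, −0.91, −1.22 and −1.27. The number of fallen sorting factors was 4, 3, 2 and 5 without flask 1, 2, 3 or 4. BTN2 (YGR142W) and CUR1 (YPR158W), paralogs that direct misfolded proteins to storage sites, had the lowest and the third lowest mean. BTN2 scored −2.45, −7.65 and −4.16 in flasks 1, 3 and 4, with no value in flask 2 (adjusted p = 0.019), and CUR1 scored −1.39, −3.67, −6.27 and −2.90 (adjusted p = 0.00059). ROQ1, which redirects the ubiquitin ligase Ubr1 toward misfolded proteins under stress, scored −1.09, −2.97, −5.36 and −2.79. In these 3 genes flask 3 was the lowest, and BTN2 and ROQ1 lost their calls without it (adjusted p = 0.2 and 0.23). ROQ1 also lost its call without flask 2, on the Ontario chips alone, with the BY4741 flasks alone and with no replicate block. Under robust moderation neither BTN2 nor ROQ1 was past the threshold.

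HSP82, an Hsp90 chaperone, scored −0.13, −2.39, −3.31 and −4.47 (adjusted p = 0.0023), and its co-chaperone AHA1 scored −2.47, −2.21, −2.05 and −2.54. SIS1, a J-domain partner of Hsp70, scored −0.80, −2.70, −3.68 and −3.09 (adjusted p = 0.00096). The small heat shock protein HSP42 scored −2.62, −3.87, −4.63 and −0.66, and the disaggregase HSP104 scored −1.42, −3.21, −1.63 and −1.32. HSP42 lost its call without flasks 1, 2 or 3 (adjusted p up to 0.21) and HSP104 without flasks 2 or 3 (adjusted p up to 0.2), whereas HSP82, AHA1 and SIS1 kept theirs. CNS1, a co-chaperone that is essential and that binds Hsp90, was the member that rose, at 1.57, 1.62, 2.78 and 1.86. The number of fallen chaperone genes was 6, 3, 4 and 7 without flask 1, 2, 3 or 4. Of 35 tested general stress genes 2 fell and none rose, beside 3.18% and 7.65% of all features. Their median was −0.23, and without flask 2, 3 or 4 none of them fell.

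RPN4 (YDL020C), the activator of proteasome genes, moved the other way from the chaperones, with scores of 3.81, 3.81, 1.48 and 2.40 (mean 2.88 ± 1.14, adjusted p = 0.00026). The proteasome list itself, in which RPN4 is counted, had 2 of 35 tested members risen and none fallen. Of all features 7.65% rose and 3.18% fell, and the median of the proteasome list was 0.22.

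Enzymes around isocitrate fell. IDH1 (YNL037C) and IDH2 (YOR136W), the subunits of mitochondrial isocitrate dehydrogenase in the tricarboxylic acid cycle, scored −1.98, −3.75, −3.60 and −3.79 and −2.62, −3.39, −2.78 and −2.40 (adjusted p = 0.00041 and 0.0013). Of 20 tested genes of the cycle 6 fell and none rose, beside 3.18% and 7.65% of all features, with a median of −0.65. The number of fallen genes of the cycle was 6, 2, 2 and 2 without flask 1, 2, 3 or 4, and IDH1 and IDH2 kept their calls without any single flask. ACO1, aconitase, fell to −1.37 ± 1.03 with −0.07 in flask 1, and its call was lost without flasks 2, 3 or 4 (adjusted p up to 0.23). ISU2 (YOR226C), a scaffold on which mitochondria build iron-sulfur clusters, scored −3.98, −4.13, −2.42 and −3.05 (adjusted p = 5.2e-06). NAR1, of the cytosolic branch of iron-sulfur assembly, rose to scores of 1.96, 2.86, 2.32 and 0.54; it lost its call without flasks 2 or 3 (adjusted p up to 0.067). In all 2 of 23 iron-sulfur genes rose and 2 fell, beside 7.65% and 3.18% of all features. None of 32 tested genes of the respiratory chain and ATP synthase and none of 21 of glycolysis rose or fell, and the flask medians of glycolysis were 0.12, −0.01, −0.26 and −1.60.

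**Figure D3:**
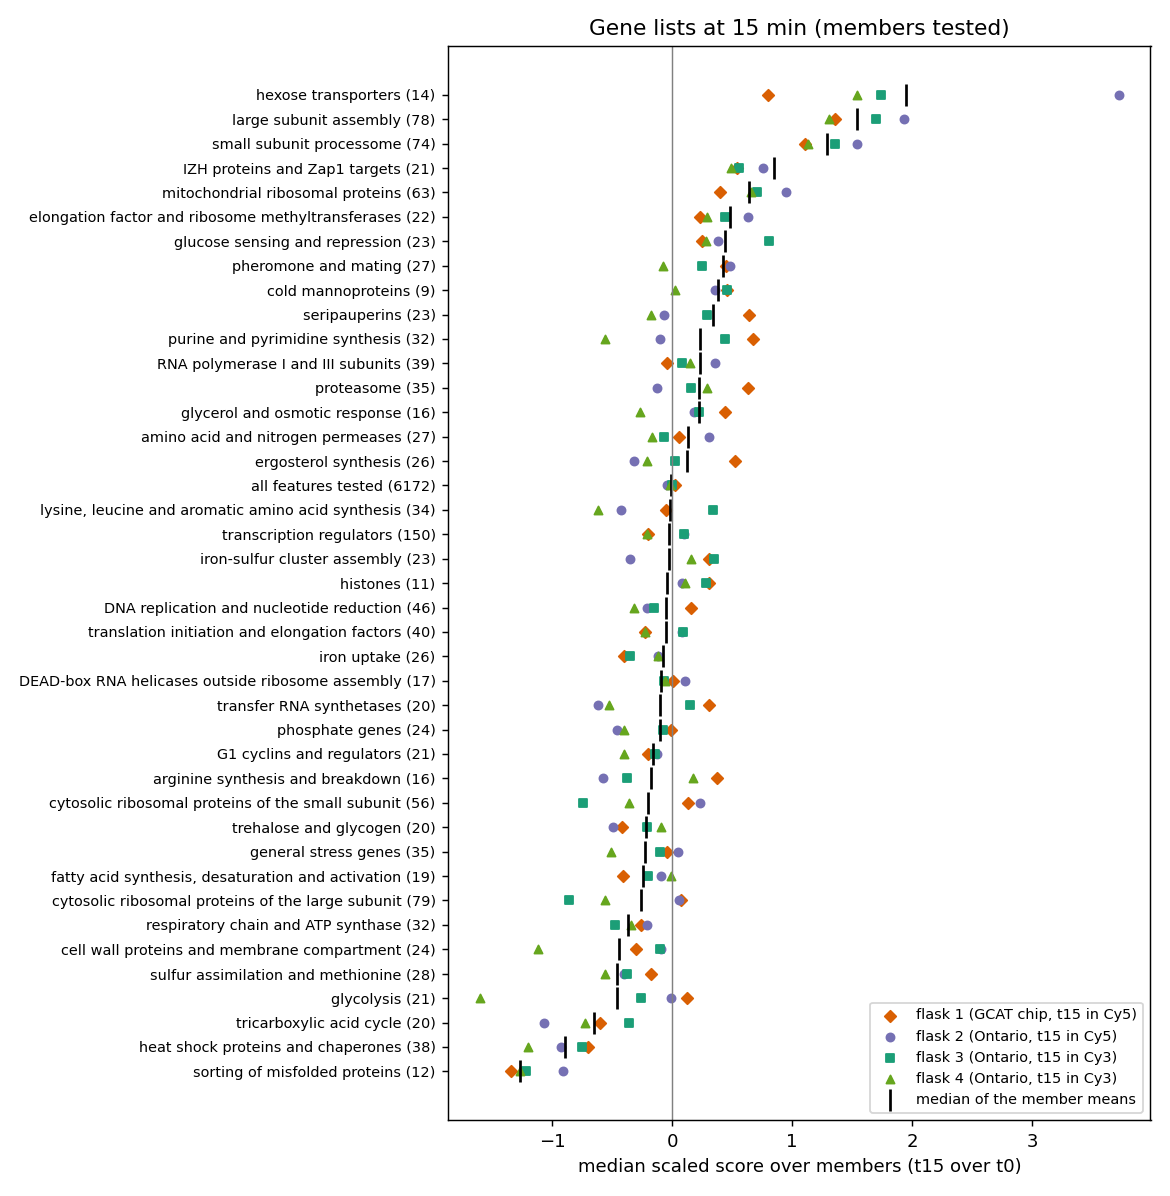
Median score of 40 gene lists and of all features tested, with the number of members tested in brackets. Each symbol is the median of 1 flask and the black bar the median of the members' fitted means. Hexose transporters (1.95) and the assembly lists (1.54 and 1.29) lie highest, and sorting of misfolded proteins (−1.27) and heat shock proteins (−0.89) lowest, with all 4 flasks on the same side of 0 in these 5 lists.

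Other single genes also fell, some of them members of lists given below. ZEO1 (YOL109W), a peripheral protein of the plasma membrane, scored −2.21, −4.98, −5.04 and −4.30 (mean −4.13 ± 1.32, adjusted p = 0.00044). The scores of STE18, the gamma subunit of the G protein that carries the mating signal, were −3.04, −1.57, −5.04 and −3.12. STE4, the beta subunit of the same G protein, scored 1.47, 2.17, 1.94 and 0.88 and lost its call without flasks 2, 3 or 4 (adjusted p up to 0.21), so that the 2 subunits stood on opposite sides of 0 in each flask. PHO85, a cyclin-dependent kinase of phosphate signalling, scored −1.35, −2.04, −2.21 and −2.76, and PHO80, its cyclin in that pathway, scored 2.32, 0.66, 2.53 and 1.50; PHO80 lost its call without flasks 1 or 3 (adjusted p up to 0.092). CLB6, a cyclin of S phase, fell to −2.08 ± 0.96. It was the fallen member among 21 G1 genes, of which none rose, beside 3.18% and 7.65% of all features. CUP1-1, which encodes the copper-binding metallothionein and has a near-identical copy, scored −1.52, −2.80, −4.24 and −1.57 and lost its call without flask 2 (adjusted p = 0.078). YGR111W, OPI10, RRG1, CPP2 and INM1, the last an inositol monophosphatase, had means from −2.85 to −2.44 and kept their calls without any single flask.

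Of 150 tested transcription regulators 13 rose and 3 fell, shares near the 7.65% and 3.18% of all features. MIG2, RPN4, MIG1 and MIG3 are described above. IFH1, a coactivator of ribosomal protein genes, scored 1.31, 2.09, 3.61 and 2.47 (adjusted p = 0.00081), while the ribosomal protein genes had the medians given above. The regulators GCR1, an activator of glycolytic genes, and MIT1, a regulator of filamentous growth, fell to scores of −1.74, −2.60, −2.49 and −1.73 and −1.58, −4.25, −2.54 and −2.86 (adjusted p = 0.00026 and 0.00092). CST6, whose product is known to activate NCE103, scored 1.45, 0.79, 1.59 and 1.97, and YAP1, an activator of oxidative stress genes, scored 2.19, 1.70, 0.55 and 1.44. CST6 lost its call without flasks 2, 3 or 4 (adjusted p up to 0.11) and YAP1 without flask 2 (adjusted p = 0.067). The number of risen regulators was 10, 5, 5 and 10 without flask 1, 2, 3 or 4. None of the 6 regulators that the series deletes passed the test at t15 in wild type. The highest of these, HMO1, scored 0.31, 0.24, 1.84 and 1.25, and HAP4 ranged from −2.65 in flask 4 to 1.92 in flask 2.

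In the remaining lists few genes passed the test, beside 7.65% of all features that rose and 3.18% that fell. None of 11 histone genes and none of 19 genes of fatty acid synthesis, desaturation and activation rose or fell. Of 27 pheromone and mating genes 4 rose and 1, STE18, fell, with a median of 0.42, and without flasks 2 or 3 none of the 4 remained risen. Of 24 cell wall and membrane compartment proteins 3 fell, ZEO1 among them, and none rose. DNA replication had 3 risen genes of 46, amino acid and nitrogen permeases 2 of 27, purine and pyrimidine synthesis 1 of 32 and glycerol and osmotic response 1 of 16, with none fallen. That last gene, GCY1, a reductase that can act on glycerol, scored 2.46, 2.90, 2.70 and 0.57 (adjusted p = 0.00065) and kept its call without any single flask. Iron uptake had 2 risen and 1 fallen of 26, phosphate genes 1 risen and 2 fallen of 24, and trehalose and glycogen genes 1 fallen of 20. Without flask 1, 2, 3 or 4 the risen genes numbered 1, 0, 2 and 0 in DNA replication, 2, 1, 1 and 0 among the permeases and 1, 1, 0 and 1 in iron uptake. The medians of these lists lay between −0.44 and 0.42.

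Genes often named as cold markers were not all past the threshold in wild type at 15 min. TIP1, a cell wall mannoprotein named for its induction by temperature shock, scored 1.43, 2.44, 1.66 and 2.23 (adjusted p = 0.1), above 0 in each flask. The related gene TIR1 scored 0.46, 1.39, −0.29 and 0.52. None of 9 cold mannoproteins rose or fell and 1 of 23 seripauperins rose, with medians of 0.38 and 0.34 at t15. Their medians of plain means over flasks were 0.76 and 1.21 at t30 and 1.53 and 1.73 at t60. For flasks 1 to 4 these ratios share the t0 samples with t15. OLE1, the fatty acid desaturase that makes membranes more fluid, scored −1.21, 6.27, 3.92 and 3.81, below 0 on the GCAT chip and above 3 on the Ontario chips, and did not pass the test (adjusted p = 0.3). FAA4, which activates fatty acids, scored 3.88, 2.66, 1.77 and 1.41 (adjusted p = 0.07), and passed the threshold without flask 2 (adjusted p = 0.04). Over the 4 deletion strains together, TIP1, OLE1 and FAA4 had t15 means of 1.78, 3.94 and 1.80. All of them passed the threshold there (limma, adjusted p at most 1e-05), whereas TIR1, at 0.23, did not (adjusted p = 0.55). The wild-type SDs of TIP1, OLE1 and FAA4 were 0.47, 3.15 and 1.10 at t15. In the later recovery arrays, which enter the same wild-type fit, they were 2.57, 6.25 and 2.87. TIP1 and FAA4 also passed in a fit of the wild-type t15 arrays alone (adjusted p = 0.015 and 0.017). In that same fit PFK27, YKR075C, HXT5, RPB5, MSS116, EFM3, ACO1, MVD1, SAT4 and SLD7 lost their calls. In ergosterol synthesis 2 of 26 genes fell and none rose, beside 3.18% and 7.65% of all features. The fallen genes, ERG12 and MVD1, both of the mevalonate path, had means of −1.58 ± 0.76 and −1.67 ± 1.09. ERG12 lost its call on the Ontario chips alone (adjusted p = 0.059) and MVD1 without flasks 1 or 2 (adjusted p up to 0.13).

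Whether the first 15 min differed from the later cold was asked with the difference of t15 and the mean of t30 and t60 over the wild-type flasks of each time. Flask 0 (BY4739) entered the later times alone and flask 4 had no t60 array, and with the BY4741 flasks alone 11 features passed the threshold. Of 6166 features tested 7 passed the threshold (0.114%), 4 with a higher and 3 with a lower score at t15, and 346 had an unadjusted p below 0.05. In flasks 1 to 4 both sides of the difference are ratios over the same t0 samples. The early genes were MIG2, YKR075C, MIG1 and NCB2, the last a subunit of the negative cofactor that binds the TATA-binding protein. MIG2 had means of 5.35 ± 2.56 at t15, 1.29 ± 1.49 at t30 (n = 5) and −1.68 ± 0.61 at t60 (n = 4), a fitted difference of 5.54, and was below 0 in 4 of 4 flasks at t60. MIG1 went from 2.19 ± 1.16 over 0.57 ± 0.53 to −1.80 ± 0.80 (difference 2.81), and YKR075C from 3.88 ± 3.80 over 0.27 ± 1.36 to −1.75 ± 0.76 (difference 4.62). For NCB2 the means were 1.96 ± 0.82, 0.53 ± 0.74 and −0.71 ± 0.47 (difference 1.93).

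Of the 3 late genes ARG1 and ORT1 are described here, both of arginine synthesis. ARG1, argininosuccinate synthetase, went from 0.39 ± 0.63 at t15 over 2.09 ± 1.34 to 3.67 ± 1.67 at t60 (difference −2.70). ORT1, the ornithine carrier of the mitochondrial membrane, went from −0.57 ± 0.95 over 1.34 ± 1.22 to 2.01 ± 1.05 (difference −2.45). In contrast, CPA1 had means of 4.24, 4.54 and 4.41 at the 3 times. Of the 6 calls described, MIG2 alone was made without each flask and under every alternative. The others were lost when single flasks were left out: MIG1 without flasks 1 or 2, YKR075C without flasks 1, 2 or 3, and NCB2, ARG1 and ORT1 without any one of the 4. The number of calls in all was then 1, 1, 2 and 4 without flask 1, 2, 3 or 4.

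**Figure D4:**
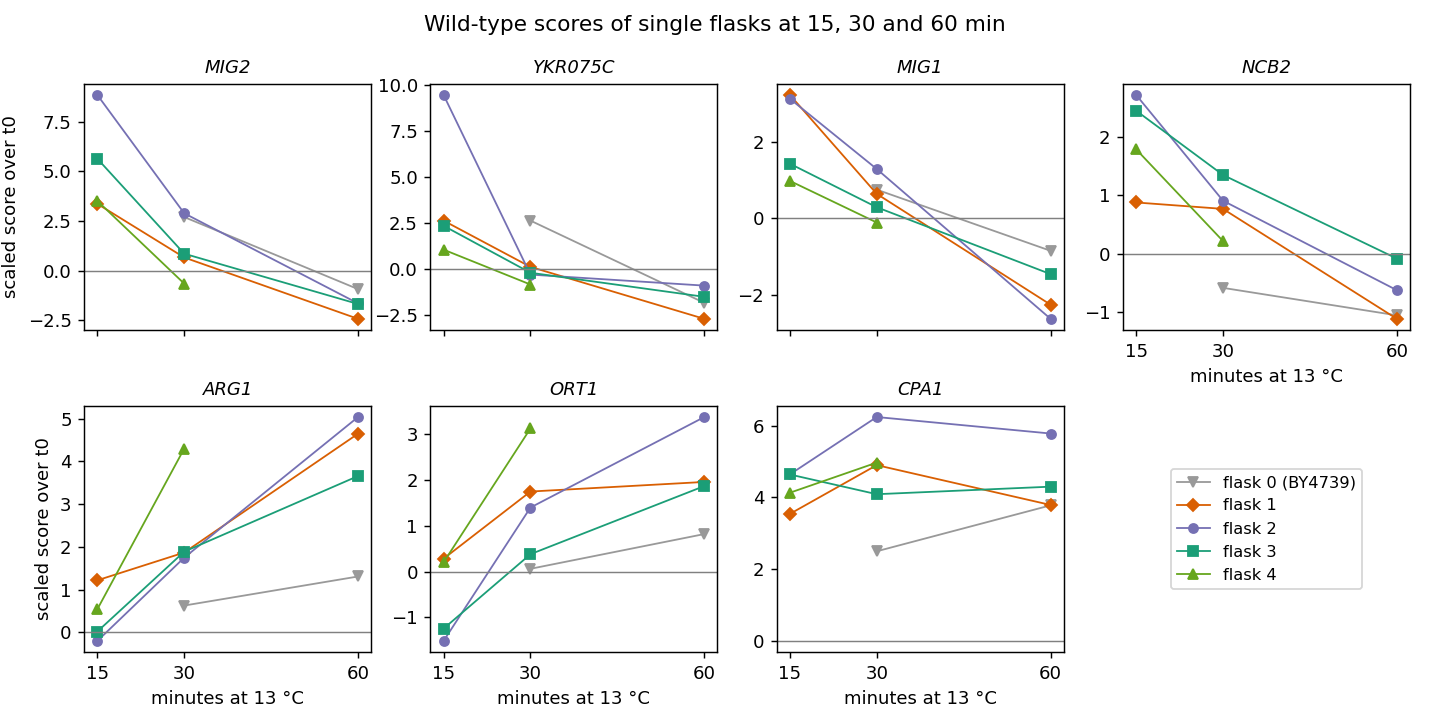
Scores of single wild-type flasks at 15, 30 and 60 min at 13 °C for 6 genes whose t15 score differed from the later cold, and for CPA1; the scale differs between panels, and flask 0 (BY4739) has no t15 array and flask 4 no t60 array. MIG2, YKR075C, MIG1 and NCB2 start above 0 in all 4 flasks and end below 0, ARG1 and ORT1 climb, and CPA1 lies above 2 at each time.

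The flasks of wild type did not resemble each other equally. Across features, which are not independent, Pearson's r of flask 1 with flasks 2, 3 and 4 was 0.290, 0.265 and 0.217, that of flask 2 with flasks 3 and 4 was 0.526 and 0.519, and that of flasks 3 and 4 was 0.662. Flask 1 is the flask on the GCAT chip, and flasks 3 and 4 share a chip source and a dye orientation; chip source and flask 1 cannot be told apart at t15. Of the 472 risen features 40 were below 0 in flask 1, against 4, 1 and 2 in flasks 2, 3 and 4. The features with the largest SD included 3 that were higher in flasks 3 and 4 than in flasks 1 and 2. Dye orientation and other differences between these pairs of flasks cannot be told apart at t15. SAT4, a kinase of ion homeostasis, scored −0.79, 0.62, 4.81 and 6.10, and SLD7, of the start of DNA replication, 1.14, −0.36, 4.31 and 6.63. YAL004W scored −0.02, −1.02, 4.57 and 5.99. YLR236C went the other way at 2.11, −1.50, −4.12 and −5.01, and was past the threshold without flask 1 (fitted value −3.50, adjusted p = 0.0012, against −2.10 and 0.058 with it). SAT4 and SLD7 were called in spite of their spread between flasks (adjusted p = 0.041 and 0.0098), with fitted values of 2.48 and 2.76. SAT4 lost its call without flasks 2, 3 or 4 (fitted values 3.07, 1.82 and 1.37, adjusted p = 0.07, 0.26 and 0.33) and SLD7 without flasks 3 or 4 (2.27 and 1.55, adjusted p = 0.14 and 0.13).

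The deletion strains gave the same time point in other flasks, each with its own t0. Since each array compares samples of one strain, the ratio of the deleted gene itself does not check the strain label. Over the 4 strains together 2542 of 5924 features tested had a t15 score different from 0 (42.9%), 1289 higher (21.8%) and 1253 lower (21.2%). Of the 459 risen wild-type features tested there, 455 had a mean above 0 in the strains and 415 also passed the threshold (90.4% of the wild-type calls, 32.2% of those of the strains), and 413 were above 0 in each of the 4 strains. Of the 193 fallen features 188 had a mean below 0 in the strains, 157 passed the threshold (81.3% of the wild-type calls, 12.5% of those of the strains) and 159 were below 0 in each strain. No feature was called in opposite directions. Across features, r between the wild-type mean and the mean of the 4 strains was 0.786, and 0.653 to 0.712 with the single strains.

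The list medians of the strains, 1.46 for the processome, 1.69 for large subunit assembly, 2.86 for hexose transporters and −0.66 for chaperones, stood beside 1.29, 1.54, 1.95 and −0.89 in wild type. Of single genes, NCE103 had strain means of 8.35 ± 0.92 in dCIN5, 2.98 ± 2.56 in dGLN3, 5.79 ± 1.09 in dHAP4 and 4.92 ± 1.06 in dZAP1 (n = 4 each), against 8.71 ± 1.99 in wild type. The difference of wild type and strains was 3.20 and did not pass the threshold (adjusted p = 0.23). CPA1 differed by 2.27 (adjusted p = 0.15), the scores of wild type being above the mean of the strains, 1.96. YKR075C had a mean of 6.99 in the strains, between its score in flask 2 and those in the other wild-type flasks; the difference of −3.11 had an adjusted p of 0.66. None of 5924 features differed between wild type and the 4 strains (0%; limma), and 493 had an unadjusted p below 0.05. Without wild-type flask 2 the count was 24, and without dHAP4 it was 1. In wild type the flasks received no G418, and strain, drug and the slide coating of dHAP4 cannot be told apart in this comparison. The strain arrays were also all on Ontario chips, whereas wild-type flask 1 was on a GCAT chip.

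**Figure D5:**
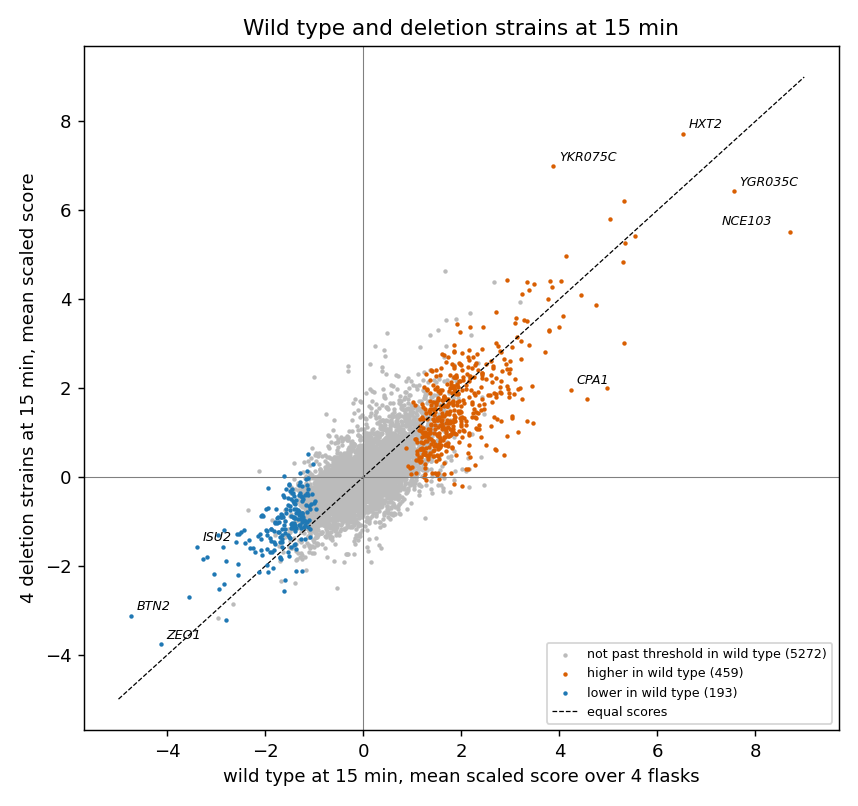
Mean score of each of 5924 features at 15 min in wild type (horizontal axis, 4 flasks) against the mean of the 4 deletion strains (vertical axis, 16 arrays), coloured by the call in wild type; the dashed line marks equal scores. Risen features lie to the right and fallen ones to the left, along the dashed line (r = 0.786), with NCE103 and CPA1 below it and YKR075C above it.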

How the data were processed

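Transcripts were measured on arrays with a pair of dyes, 1 array per flask and time. The deposited values are a score, 1 per feature and array: a log ratio that the authors made with limma, per the submitters' processing notes, scaled so that the median absolute deviation of each array is 1 (0.999 to 1.0 on the 4 arrays at t15). The version, log base, background correction, spot filters and genome build are not given in the sources used here. Since the scores are not log2 ratios, as the plan had assumed, no folds are given. All columns matched a sample (0 unmapped). The gene table held the locus tag of 5674 of 6178 features, and the other 504 keep their systematic names; features measured in 4 flasks numbered 5900, and 272 were measured in 2 or 3, where the fit used those flasks alone.

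Scores were tested in limma 3.58.1 (R 4.3.3) over the 23 wild-type arrays of cold and recovery, as a mean for each time with a random flask block (correlation 0.244). Variances were moderated, and Benjamini-Hochberg adjustment was made over all features with at least 2 flasks, at an adjusted p below 0.05. Flask numbers pair the times because a number marks 1 flask. The same fit gave t15 minus the mean of t30 and t60. Wild type was set against 4 deletion strains in a fit of the 20 t15 arrays. Of the other strains, dHMO1, whose ratios have no settled direction, was left out, and dSWI4 has no t15 array in the series. Per the labels a strain's flasks were grown in pairs by day, but the pairs are not given, and the day is not in the model. Tables and figures used Python 3.11.15, numpy 2.4.6, pandas 2.3.3 and matplotlib 3.10.9.

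The time point and the 41 gene lists were chosen with earlier results of these data known. Genes named are the 20 highest and 20 lowest means among features past the threshold, measured in at least 3 flasks and of one sign in every flask measured; up to 8 per direction of the difference from later cold; the 8 largest SDs; up to 5 members per list with the smallest adjusted p; the regulators past the threshold; and the 6 deleted regulators, from which the text takes a part; 1 gene that the rule names is not reported here. On simulated data with 100 changes of 2 units and 100 of 1 unit, the t15 design over 6172 features found 79 of the larger and 11 of the smaller (7 of 97 calls false). The numbers were 72 and 5 for the difference from later cold over 6166 features, and 70 and 12 for wild type against the strains over 5924. Alternatives were no block, a fixed flask block, the t15 or cold arrays alone, a dye term, arrays centred or scaled, features on every array, robust moderation, Ontario chips, BY4741 flasks, a stricter threshold and each flask left out. No sequences were used here, and probes shared by similar genes were not examined.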

Additional observations from a re-analysis of the deposited data

Results flagged for a closer look

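In 5 of 102 named genes with a score in all 4 flasks, 1 flask lay far from the other 3; chance alone flags about 1 group in 20, and which of these gaps would recur was not tested. In flask 1, the flask on the GCAT chip, YGR035C scored 3.65 against 8.82 to 8.91 in the others, IZH2 1.69 against 5.00 to 5.61, and IDH1 −1.98 against −3.79 to −3.60. In flask 2, HXT2 scored 13.42 against 3.81 to 4.91, and HSP104 −3.21 against −1.63 to −1.32.

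The scores of 7 genes differed between t15 and the later cold samples of wild type, of which 6 are given here. Their fitted differences, t15 minus the mean of t30 and t60, were 5.54 for MIG2, 4.62 for YKR075C, 2.81 for MIG1 and 1.93 for NCB2, and −2.70 for ARG1 and −2.45 for ORT1.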

How the results depend on the processing

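Of the 92 genes named as risen or fallen at t15, 61 kept the call under each of 15 alternatives and 63 without each single flask; no named gene that was called changed its direction. At t15 there were 668 calls (472 higher, 196 lower). The number was 274 to 610 (198 to 438 higher, 76 to 172 lower) when 1 flask was left out, 424 (104 lower) with the t15 arrays alone and 293 (217 higher, 76 lower) at an adjusted p below 0.01. With no replicate block the total was 677, and with flask as a fixed replicate block it was 966, 327 of them lower. The difference from later cold gave 7 calls, 8 with the fixed replicate block, 35 with the cold arrays alone, 11 with BY4741 flasks, 1 each with no replicate block, on the Ontario chips and at an adjusted p below 0.01, and 1 to 4 without single flasks. Wild type against the strains gave 0 calls, also with replicate number as a replicate block, 1 without dHAP4, and 0 to 24 without single wild-type flasks. The cause of these shifts was not tested, except that fewer arrays enter the fits that leave arrays out. Signal over background was not analysed here.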
